A study of Mus musculus with 18 samples.

Results

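Fear conditioning was examined in somatostatin-positive (SOM+) nuclei of the mouse central amygdala (CeA) through 4 ATAC-seq libraries, 2 from fear-conditioned and 2 from control mice, out of 18 libraries in the series. ATAC-seq uses the Tn5 transposase, which cuts DNA that is not wrapped in tightly packed chromatin, so reads pile up at open promoters. Of 26065 promoter windows, most of them 2000 bases centred on a transcription start site, 25157 held enough counts to be tested. All 4 libraries came from C57BL/6J mice aged 2 to 3 months with the genotype entry WT, the nuclei were gated on GFP (SOMH2B-GFP in the sort protocol), and each library held 50000 nuclei. In each group the first library was labelled male and the second female. SOM+ nuclei of the cortex, also 2 fear-conditioned and 2 control libraries with the same strain, age, genotype entry and sexes, entered the same fit and served as the comparison. The protocol describes the sorted aliquots as technical replicates, but the 2 libraries of a group differ in labelled sex. Their spread therefore includes any difference of sex and animal, and part of it may be technical. Whether a library is 1 animal or a pool is not stated. The p values and SE below rest on a spread estimated as a function of level over all promoters and all 4 SOM+ groups. They do not reflect how closely the 2 libraries of a group agreed at a given promoter. No source used here gives the conditioning schedule or the time between training and dissection.

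The CeA is the output nucleus of the amygdala and is made almost wholly of GABAergic neurons. Its SOM+ cells are a major inhibitory class, set against cells that express protein kinase C delta (Prkcd), and synapses onto SOM+ cells are known to be altered by fear learning. Neuronal activity acts on promoters through CREB, which binds the cyclic AMP response element (CRE). It also acts through immediate early genes such as Fos and Npas4, whose products carry the response on. Arc, also an immediate early gene, encodes a protein that acts at synapses. ErbB4, a receptor for neuregulins, is carried by many SOM+ neurons.

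No promoter passed the test for fear conditioning. At a Benjamini-Hochberg adjusted p under 0.05 in edgeR's quasi-likelihood test, 0 of 25157 promoters (0.0%) were higher and 0 (0.0%) were lower in fear-conditioned than in control CeA SOM+ nuclei, and the smallest adjusted p was 0.935. At an unadjusted p under 0.05, 329 promoters (1.31%) were higher and 269 (1.07%) lower. DESeq2 also called 0, with 203 higher and 145 lower at an unadjusted p under 0.05, and limma after cyclic loess scaling called 0, with 469 higher and 600 lower. Leaving out 1 library moved these counts: without the male control library 4 promoters were called higher, 3 of them Y-linked and the other Foxl2os, and 627 and 635 had an unadjusted p under 0.05 on the higher and the lower side. The counts at that unadjusted p were 981 and 1258 without the male fear library, 606 and 751 without the female fear library, and 259 and 132 without the female control library. The median log2 fold change over all promoters was 0.008, and 95% of promoters lay between -0.70 and 0.795. By chromosome the median ran from -0.042 on chromosome 17 to 0.048 on chromosome 18 over the autosomes and X.

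**Figure D1:**
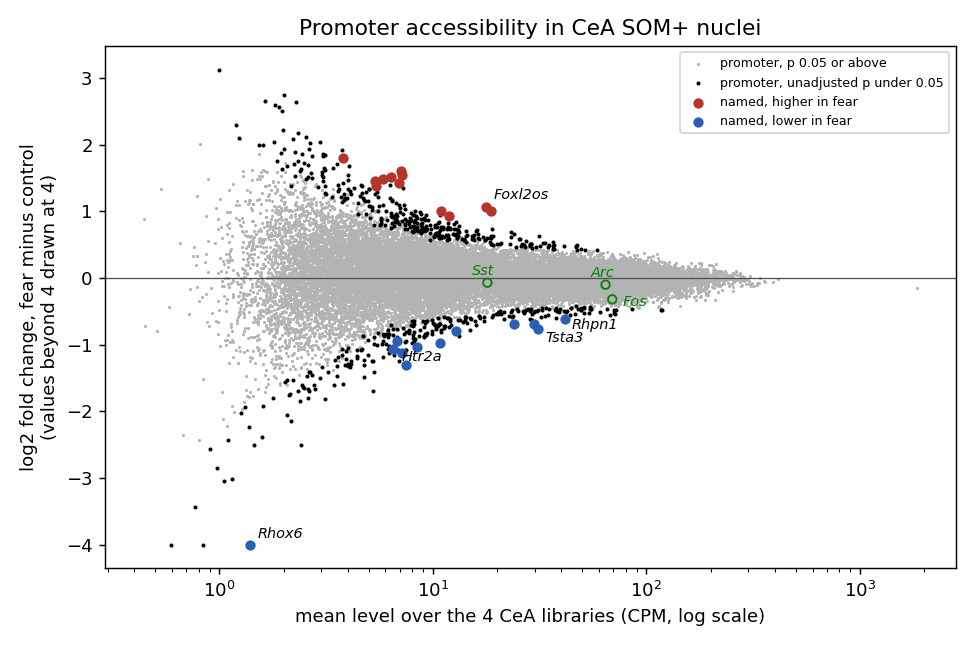
Log2 fold change of fear over control against the mean level of each promoter in the 4 CeA SOM+ libraries, in CPM (each count over the TMM-scaled library total) on a log scale. Grey points are the promoters tested, black points the 598 with an unadjusted p under 0.05, coloured points the leading promoters named in the text and open green circles Fos, Arc and Sst. The spread narrows as the level grows, and no point passed the adjusted threshold.

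What the 4 libraries can bound depends on the level of the promoter. The 95% interval of the fold change, not adjusted for the number of promoters, stayed within 2-fold in either direction for 17327 promoters (68.9%). Split by level into 5 sets of equal size, the lowest set, up to 5 CPM, had 1.31% of its promoters bounded in this way. In the next set, up to 10.8 CPM, the share was 49.5%, in the middle set, up to 32.8 CPM, it was 93.7%, and in the highest, above 65.7 CPM, all 5032 promoters were. These intervals do not set the size of change that the adjusted test would call. Foxl2os, at 7.60 to 24.8 CPM in the single CeA libraries, had a log2 fold change of 1.07 and was not called. A fold change of 2 or more could therefore have gone uncalled, and not only at the weakest promoters. Of the 598 promoters at an unadjusted p under 0.05, 86 higher and 70 lower ones lay in the lowest set, against 0 higher and 8 lower ones in the highest. The median log2 fold change also depended on level. From the lowest to the highest set it was 0.062, 0.062, 0.022, -0.012 and -0.016. The median over all promoters, set beside the gene lists below, is therefore not matched to them by level.

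The spread between libraries of the same group was as wide as that between the groups. Promoter totals were 5675233 and 2648959 counts in the fear libraries, against 7727263 and 3611038 in the control libraries, so the female library was the shallower in both. A count of 0 allowed up to 0.536 and 0.942 CPM in the fear libraries, against 0.357 and 0.786 CPM in the control libraries, a limit of 3 counts on the same scaled totals that covers counting error only. Reads at the Y-linked Ddx3y, Uty and Eif2s3y numbered 817 in the male fear library and 1232 in the male control library, with 0 in both female libraries, as the sex labels have it. Among promoters of at least 10 CPM, 15.3% differed by more than 1.5-fold between the 2 fear libraries and 8.16% between the 2 control libraries. Between fear and control, the share was 2.3% for the male pair and 12.4% for the female pair, and 8.4% and 6.55% for the pairs of unlike sex. The closest pair of all was thus the male fear and the male control library.

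The libraries also differed in how sharply open promoters stood out. Promoters of cytosolic ribosomal proteins, open in every cell type, were set against olfactory receptor promoters, which are closed in brain. The ratio of their median levels, each level divided by the width of its window, was 34.8 and 15.8 in the fear libraries. It was 23.8 and 33.4 in the control libraries. The means were 25.3 ± 13.4 in fear and 28.6 ± 6.79 in control (SD, n = 2 each; exact two-sided permutation test over 6 arrangements, p = 1.0, with 0.333 the smallest p this design allows). In cortex SOM+ nuclei the ratio was 54.8 and 60.0 in fear, against 53.6 and 73.5 in control, above every CeA library. The female fear library had both the lowest ratio and the lowest total. Its part in the values below was not tested, and the values of all 4 libraries are given.

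The difference between fear and control did not repeat from the male to the female pair. Across 15591 promoters of at least 10 CPM, the log2 difference in the male pair and that in the female pair had a Pearson correlation of -0.172, and across all 25157 it was -0.207. These are descriptions over promoters, which are not independent, and the pairs share no library. After cyclic loess scaling, which was added after the data were seen, the values were -0.039 and -0.004. Both pairs moved by more than 1.5-fold in the same direction at 16 promoters of at least 10 CPM on the higher side and at 5 on the lower side, and in opposite directions at 39. Ribosomal protein promoters had a median log2 difference of 0.14 in the male pair and -0.23 in the female pair, and olfactory receptor promoters one of -0.32 and 0.48, so these classes parted in opposite directions in the male and the female pair.

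**Figure D2:**
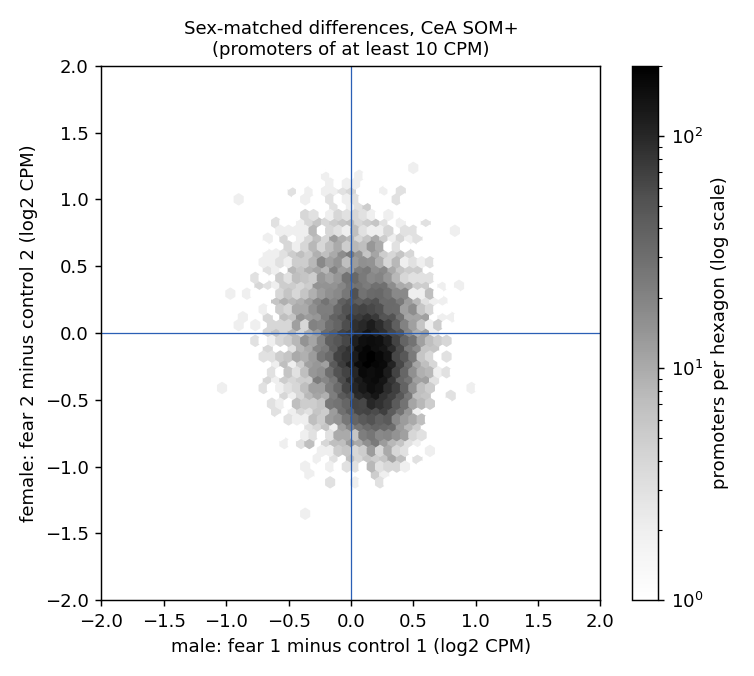
Log2 difference in CPM of fear minus control in the male pair (horizontal axis) against that in the female pair (vertical axis) for CeA SOM+ promoters of at least 10 CPM. Darker hexagons hold more promoters (log scale), and the cloud leans from upper left to lower right, with a Pearson correlation of -0.172.

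Markers of the labelled and of other cell types were checked first. The marker promoters of GABAergic neurons, 13 in all, summed to 772 and 631 CPM in fear and to 749 and 683 CPM in control, and the 14 of microglia to 88.0 and 106 CPM in fear and to 93.8 and 105 CPM in control. The 18 somatostatin markers summed to 396 and 363 CPM in fear and 383 and 374 CPM in control. The 24 central amygdala and striatal markers summed to 906 and 706 CPM in fear and 787 and 746 CPM in control. Penk, the enkephalin precursor of CeA neurons, was at 42.3 and 35.5 CPM in fear and 46.0 and 38.5 CPM in control CeA nuclei. No cortex SOM+ library was above 9.59 CPM for Penk. Prkcd, another CeA marker, overlapped between the regions. It was at 26.1 and 19.8 CPM in fear and 23.3 and 17.3 CPM in control CeA nuclei. Its cortex values were 18.8 and 19.3 CPM in fear and 16.8 and 18.6 CPM in control. None of the markers was at 0 in every CeA library. The 18 glutamatergic markers summed to 663 and 501 CPM in fear and 596 and 584 CPM in control, and the 12 markers of other interneurons to 264 and 243 CPM in fear and 264 and 219 CPM in control. The 14 astrocyte markers summed to 204 and 199 CPM in fear and 192 and 173 CPM in control. The 16 oligodendrocyte markers summed to 198 and 207 CPM in fear and 198 and 213 CPM in control, and the 14 vascular markers to 108 and 132 CPM in fear and 116 and 123 CPM in control. Among these marker lists, only the astrocyte sums did not overlap between the groups. Of the 14 astrocyte promoters, 2 (14.3%) were higher and 1 (7.14%) lower without overlap, beside 11.4% and 9.64% of all promoters. A log2 fold change above 0 was found at 10 of the 14, beside 51.4% of all promoters, and 0 were called. Their median was 0.146 beside 0.008 over all promoters. That 0.008 is not matched by level, and the median was 0.062 in each of the 2 lowest level sets. In sorted nuclei measured in bulk, a change in the share of a kind of nucleus and a change in accessibility within each nucleus cannot be told apart.

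Promoters of activity-induced genes are shown first by sequence, because a CRE is the element through which activity reaches many of them. The 300 bases run from 250 before to 50 after the start site (RefSeq, GRCm38.p6), 5′ to 3′ on the strand of the gene, and capitals mark matches to TGACGTC, the CRE without its last base, read on either strand. Positions give the first matching base relative to the start site. Npas4, on the minus strand at chr19:4989922-4990221, holds 2 matches, at -181 and -169 from the start site. Sst, on the minus strand at chr16:23890795-23891094, holds the CRE palindrome, which matches on both strands, at -48 and -47. Fos, on the plus strand at chr12:85473640-85473939, holds no match to these exact letters. It does hold TGACGTA, which differs from them in the last letter only and was not counted. Foxl2, the protein-coding gene that leads the higher promoters below, on the plus strand at chr9:98955357-98955656, holds no match to TGACGTC.
Npas4: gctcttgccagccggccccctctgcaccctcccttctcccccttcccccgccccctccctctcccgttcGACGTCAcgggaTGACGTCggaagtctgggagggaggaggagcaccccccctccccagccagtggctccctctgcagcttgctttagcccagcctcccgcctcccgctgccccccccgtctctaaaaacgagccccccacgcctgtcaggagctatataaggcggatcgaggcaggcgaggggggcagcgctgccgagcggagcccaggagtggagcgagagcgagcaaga
Sst: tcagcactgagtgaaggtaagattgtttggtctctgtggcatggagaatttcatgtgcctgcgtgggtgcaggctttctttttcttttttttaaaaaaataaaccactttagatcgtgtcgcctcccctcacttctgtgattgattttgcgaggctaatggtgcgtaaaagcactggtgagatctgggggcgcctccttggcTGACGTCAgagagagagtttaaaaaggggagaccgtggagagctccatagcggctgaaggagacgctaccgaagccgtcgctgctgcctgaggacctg
Fos: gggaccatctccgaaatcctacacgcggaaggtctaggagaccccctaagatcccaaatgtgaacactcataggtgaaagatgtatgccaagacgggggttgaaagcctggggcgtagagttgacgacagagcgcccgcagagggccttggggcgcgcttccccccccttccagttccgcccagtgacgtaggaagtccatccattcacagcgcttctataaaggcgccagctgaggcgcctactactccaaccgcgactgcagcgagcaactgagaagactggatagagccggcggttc
Foxl2: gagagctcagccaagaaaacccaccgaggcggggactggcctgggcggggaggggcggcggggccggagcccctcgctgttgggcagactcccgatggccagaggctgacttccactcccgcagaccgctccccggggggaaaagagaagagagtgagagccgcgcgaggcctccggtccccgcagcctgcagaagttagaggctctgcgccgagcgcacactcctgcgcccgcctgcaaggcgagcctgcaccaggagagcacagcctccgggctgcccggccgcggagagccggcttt

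Of the 35 immediate early and activity-induced genes with a promoter sequence, 10 held TGACGTC (28.6%), namely Btg2, Dusp1, Egr2, Maff, Npas4, Nr4a3, Pcsk1, Per1, Plk2 and Scg2, against 775 of 16839 tested genes with a sequence (4.6%). The E-box CACGTG was in 8 of the 35 (22.9%, against 9.3% of all), the AP-1 motif TGANTCA in 2 (5.71%, against 8.35%) and the EGR core GTGGGCG in 3 (8.57%, against 11.9%), each searched on both strands, and a base could count towards more than 1 motif. The median log2 fold change of fear over control was -0.011 over the 10 CRE-bearing genes, and -0.028 over all 775 genes with that match. A match is a run of letters and not a measured binding site.

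None of the promoters of immediate early genes was called. Over the windows that stand for the genes of the list, the lowest value in a CeA library was 6.28 CPM. A further window of Bdnf was lower, at 3.93 CPM in the male fear library. All 45 genes of the list had a tested window, of which 18 had a log2 fold change above 0, as 51.4% of all promoters had, and 27 below 0, with a median of -0.030 beside 0.008 over all promoters. That 0.008 is not matched by level, and the median was -0.012 and -0.016 in the 2 highest level sets. For 44 of the 45, the 95% interval stayed within 2-fold. The levels of 2 were higher without overlap in the fear libraries (4.44%, beside 11.4% of all promoters) and those of 6 lower (13.3%, beside 9.64%).

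Fos, which encodes a subunit of the AP-1 transcription factor, was at 73.6 and 48.7 CPM in fear and 73.9 and 80.7 CPM in control (chr12:86813851-86815850, mm9). Its log2 fold change was -0.32 with a 95% interval from -0.76 to 0.12. The male fear and control libraries were nearly equal, and the female fear library stood apart as the lowest. Npas4, an activity-dependent transcription factor of neurons, was at 60.7 and 55.6 CPM in fear and 57.1 and 86.8 CPM in control, a log2 fold change of -0.29 (interval -0.72 to 0.14), with overlapping groups. Arc, which acts at synapses in receptor traffic, was at 67.0 and 56.5 CPM in fear and 57.7 and 76.3 CPM in control, a log2 fold change of -0.10 (interval -0.53 to 0.33). For these 3 genes the upper end of the interval was at most 0.33 on the log2 scale.

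Egr1, an activity-induced zinc finger factor, was at 282 and 178 CPM in fear and 239 and 207 CPM in control. Its fear libraries enclosed both control values, and its log2 fold change was 0.05 (interval -0.41 to 0.51). Nr4a3, a nuclear receptor with a CRE match, was at 158 and 104 CPM in fear and 122 and 103 CPM in control, a log2 fold change of 0.22 (interval -0.21 to 0.66). Both were named after their values were seen. At the edges of the list, Ier3, an immediate early gene, was at 9.29 and 15.7 CPM in fear and 7.97 and 6.29 CPM in control, a log2 fold change of 0.74 ± 0.32 (SE) with an unadjusted p of 0.0231 and an adjusted p of 1.0. Its window overlaps that of Flot1, and reads in the shared stretch count for both. Maff, a small bZIP factor with a CRE match, was at 28 and 26.4 CPM in fear and 31.3 and 44.6 CPM in control, a log2 fold change of -0.45 ± 0.23 (SE; unadjusted p 0.0465, adjusted p 1.0). Nfil3 and Csrnp1, transcriptional regulators, had log2 fold changes of 0.28 and -0.37.

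Bdnf, the neurotrophin whose alternative promoters respond to activity, has 4 separate windows. The first, at chr2:109513857-109518188 (mm9), was at 13.8 and 24.2 CPM in fear and 15.6 and 16.5 CPM in control, so the fear libraries enclosed both control libraries. Fear and control values overlapped in the other windows too, with unadjusted p values of 0.774, 0.416 and 0.348. The first window's log2 fold change was 0.20 (interval -0.29 to 0.70). Of the 9 neurotrophin and receptor promoters, 2 were above 0 and 7 below 0, with a median of -0.077. Ngfr, the low-affinity neurotrophin receptor, was at 8.04 and 8.48 CPM in fear and 11.8 and 12.3 CPM in control, without overlap, a log2 fold change of -0.55 ± 0.30 (SE; unadjusted p 0.0718). Ntf5, a further ligand, was at -0.31 on the log2 scale, and Ntf3 at 0.00.

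**Figure D3:**
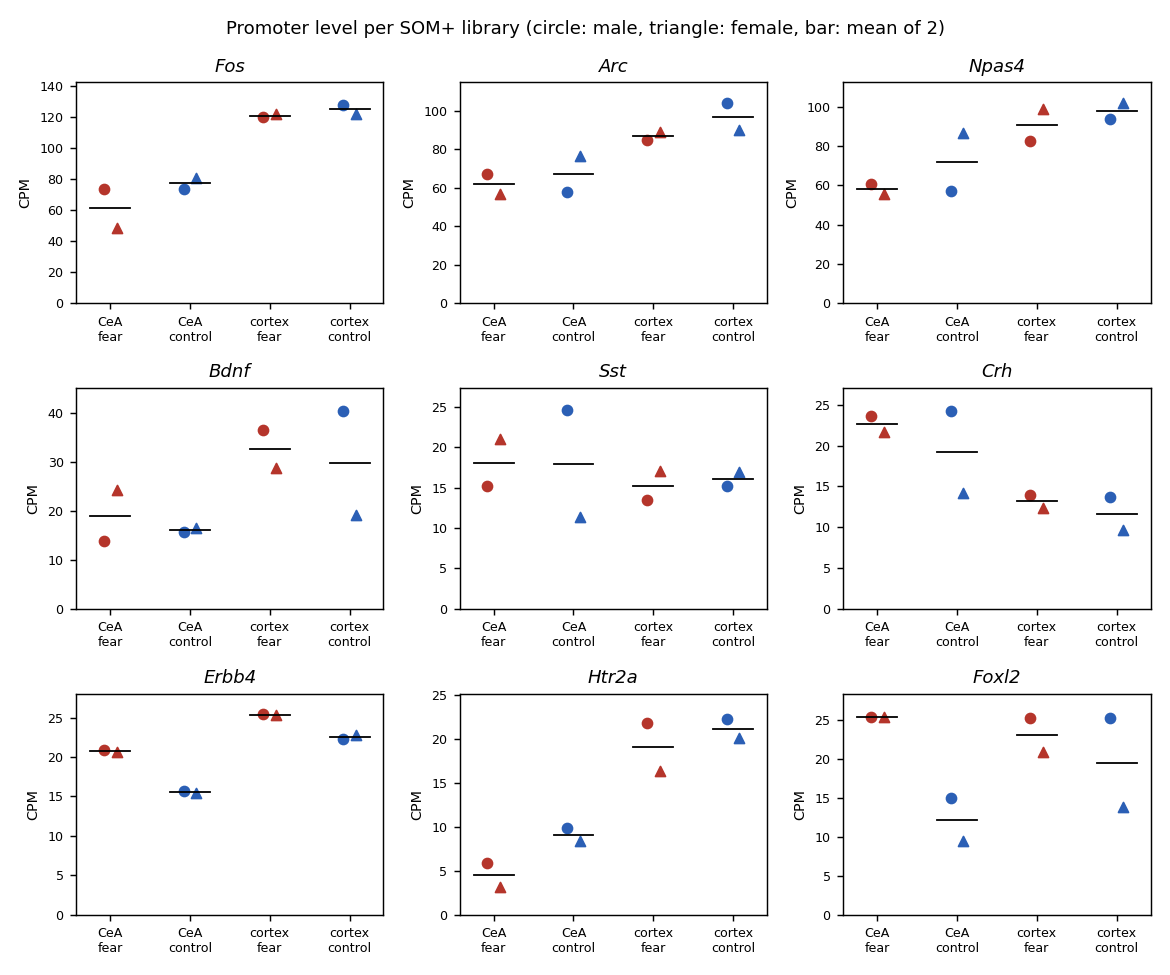
Level in CPM of 9 promoters in the SOM+ libraries, with CeA fear, CeA control, cortex fear and cortex control from left to right. Circles are male and triangles female libraries, and bars the mean of 2. The CeA fear and control values do not overlap for Foxl2, Erbb4, Htr2a and Fos, and none of the 9 passed the adjusted threshold.

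Signalling genes between the receptor and the nucleus gave the same picture of small differences. Of the 46 CREB and MAPK promoters, 18 were above 0 and 28 below 0, with a median of -0.052 and 0 called, and the interval stayed within 2-fold for 45. Rps6ka1, a kinase downstream of ERK, was at 40.5 and 31.4 CPM in fear and 31.5 and 21.5 CPM in control, a log2 fold change of 0.43 ± 0.23 (SE; unadjusted p 0.0643). Its lowest fear value was just below its highest control value. Prkaca, a catalytic subunit of protein kinase A, was at 101 and 48.7 CPM in fear and 79.3 and 113 CPM in control, so the 2 fear libraries lay on either side of the male control. Adcy8, an adenylyl cyclase, and Crtc2, a CREB coactivator, had log2 fold changes of 0.20 and -0.31. The 59 tested promoters of chromatin modifiers had 20 above 0 and 39 below 0, a median of -0.066 and 0 called. Among them Tet1, which oxidises methylated cytosine, was at 6.79 and 7.85 CPM in fear and 4.76 and 5.24 CPM in control (log2 fold change 0.55, interval -0.27 to 1.36), and Chd8, a chromatin remodeller, had a log2 fold change of 0.38. On the lower side, Hdac7, a histone deacetylase, and Ehmt1, a histone methyltransferase, were at -0.35 and -0.31.

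Synaptic and channel genes likewise held no called promoter. Among the 41 glutamate receptor and postsynaptic promoters, 21 were above 0 and 20 below 0, with a median of 0.008, the same as over all promoters. Shank1, a postsynaptic scaffold protein, was at 12.9 in both fear libraries and at 15.3 and 21.8 CPM in control, a log2 fold change of -0.50 ± 0.27 (SE; unadjusted p 0.0665). Grik1 was at -0.44, while the kainate receptor gene Grik4 and the metabotropic receptor gene Grm8 were at 0.25 and 0.26. The 20 GABA synthesis, transport and receptor promoters had 13 above 0 and 7 below 0, a median of 0.073, and intervals within 2-fold for all 20. Gad2, which makes GABA, was at 62.5 and 63.4 CPM in fear and 58.5 and 55.3 CPM in control, higher without overlap by a log2 fold change of 0.14 (interval -0.27 to 0.55). The receptor subunit genes Gabrb1 and Gabrg3 had log2 fold changes of 0.21 and 0.33, and the GABA-B receptor genes Gabbr1 and Gabbr2 of -0.32 and -0.18. The Gabrg3 window overlaps that of the predicted gene Gm9962. Of the 43 channel promoters, 18 were above 0 and 25 below 0, with a median of -0.041 and intervals within 2-fold for all 43. Kcnn1, a calcium-activated potassium channel, was at 17.9 and 27.0 CPM in fear and 14 and 17.6 CPM in control, a log2 fold change of 0.50 ± 0.25 (SE; unadjusted p 0.0436, adjusted p 1.0), while its relative Kcnn3 was at -0.29. Hcn4, a pacemaker channel, was at 0.29.

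None of the genes that define SOM+ and other CeA neurons was called. Sst itself was at 15.2 and 21.0 CPM in fear and 24.6 and 11.3 CPM in control (chr16:23889931-23891930, mm9). The 2 control libraries enclosed both fear libraries, and the log2 fold change was -0.07 with an interval from -0.59 to 0.45. Prkcd was at 26.1 and 19.8 CPM in fear and 23.3 and 17.3 CPM in control (log2 fold change 0.17), and Penk had a log2 fold change of -0.12. Crh, the corticotropin-releasing hormone, was at 23.6 and 21.7 CPM in fear and 24.3 and 14.2 CPM in control, a log2 fold change of 0.20 (interval -0.31 to 0.71). The 13 GABAergic, 18 somatostatin and 24 central amygdala and striatal marker promoters had medians of -0.045, -0.006 and 0.024, with 0 called. Without overlap, 1 GABAergic promoter (7.69%) was higher and 2 (15.4%) lower, 2 somatostatin promoters (11.1%) were higher and 1 (5.56%) lower, and 2 central amygdala and striatal promoters (8.33%) were higher and 1 (4.17%) lower, beside 11.4% higher and 9.64% lower of all promoters. Their widest differences were 0.47 for Nos1, which marks a long-range class of somatostatin cells, and -0.38 for Drd2, a dopamine receptor. The striatal-type factors Rarb and Six3 were at 0.39 and 0.34, Crhbp, which binds corticotropin-releasing hormone, at 0.20, and Pdyn, the dynorphin precursor, at -0.23. Sp9, a factor of developing GABAergic neurons, was at -0.26, and Cort, a peptide related to somatostatin, at -0.12.

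Peptide and receptor genes of the CeA held the 2 lowest members of the lists plotted. Of 40 promoters, 16 were above 0 and 24 below 0, with a median of -0.049. Htr2a, a serotonin receptor, was at 5.89 and 3.14 CPM in fear and 9.87 and 8.39 CPM in control (chr14:75039647-75041646, mm9), a log2 fold change of -0.95 ± 0.34 (SE; unadjusted p 0.00466, adjusted p 1.0). Both fear values were below both control values, and in cortex the log2 fold change was -0.14. Cckar, a cholecystokinin receptor, was at 2.14 and 3.45 CPM in fear and 6.54 and 6.82 CPM in control, a log2 fold change of -1.30 ± 0.56 (SE; unadjusted p 0.0200, adjusted p 1.0). On the higher side Cartpt, the CART peptide precursor, and Tacr3, a tachykinin receptor, were at 0.30 and 0.29. In the list, 4 promoters were higher without overlap (10%, beside 11.4% of all) and 7 lower (17.5%, beside 9.64%).

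Stress genes and the ErbB pathway were close to the median of all promoters. The 31 glucocorticoid and stress promoters had 17 above 0 and 14 below 0, with a median of 0.029. Nr3c1, the glucocorticoid receptor, was at 16.8 and 15.7 CPM in fear and 15.9 and 15.2 CPM in control, with a log2 fold change of 0.06 (interval -0.47 to 0.59). Fkbp5, which restrains that receptor, was at 65.9 and 42.4 CPM in fear and 59.2 and 60.6 CPM in control, a log2 fold change of -0.13. Crhr2, a receptor of the corticotropin-releasing hormone family, was at 0.42 and Hsd11b1, which regenerates active glucocorticoid, at 0.41, whereas Adcyap1, the precursor of the peptide PACAP, was at -0.83 (interval -1.91 to 0.24) and the ubiquitin ligase gene Stub1, whose window overlaps that of Mir3082, at -0.30. The 26 ErbB and neuregulin promoters had 15 above 0 and 11 below 0, with a median of 0.022. Erbb4 was at 20.9 and 20.7 CPM in fear and 15.7 and 15.5 CPM in control (chr1:69153634-69155633, mm9). The replicates of each group nearly coincided, and the log2 fold change was 0.42 with an interval from -0.09 to 0.92 (unadjusted p 0.104, adjusted p 1.0). In cortex Erbb4 was at 25.4 and 25.3 CPM in fear and 22.3 and 22.8 CPM in control, a log2 fold change of 0.17. Its partner receptor gene Erbb3 was at -0.56, the ligand gene Nrg1 at -0.36 and the ligand gene Ereg at 0.67.

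**Figure D4:**
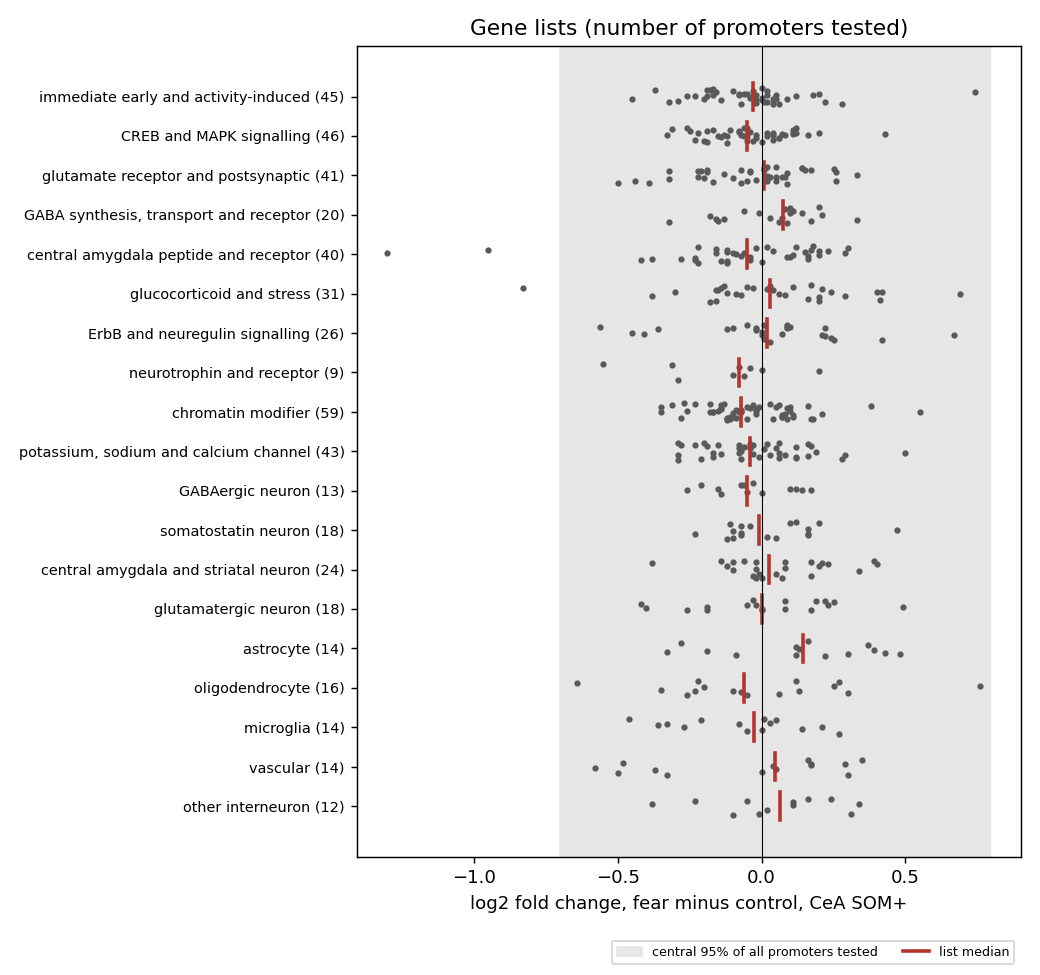
Log2 fold change of fear over control in CeA SOM+ nuclei for the members of each gene list, with the number tested in brackets. Points are promoters, red lines list medians and the grey band the central 95% of all promoters tested, -0.70 to 0.795. Cckar at -1.30, Htr2a at -0.95 and Adcyap1 at -0.83 are the points outside the band.

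The promoters with the smallest p are given as leads that did not pass the test. On the higher side, the first 2 share their start region. Foxl2 encodes a forkhead factor of ovary and eyelid, and Foxl2os is the transcript annotated beside it on the opposite strand. Foxl2 was at 25.4 and 25.4 CPM in fear and 15.0 and 9.44 CPM in control (chr9:98855026-98857025, mm9), means of 25.4 ± 0.0529 and 12.2 ± 3.92 CPM (SD, n = 2 each). Its log2 fold change was 1.01 ± 0.26 (SE; edgeR's quasi-likelihood test, unadjusted p 9.73e-05, adjusted p 0.935). Foxl2os was at 23.9 and 24.8 CPM in fear and 14.5 and 7.60 CPM in control, a log2 fold change of 1.07 ± 0.26 (SE; unadjusted p 4.93e-05, adjusted p 0.935). The windows share 1704 bases, so both values rest on largely the same reads. In cortex, Foxl2 was at 25.3 and 20.9 CPM in fear and 25.2 and 13.8 CPM in control, so the female control library was the lowest in cortex too. Whether it was called turned on 1 library: without the male control library of the CeA, the log2 fold change of Foxl2os was 1.68 with an adjusted p of 0.0301.

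The other leading higher promoters lay between 0.786 and 19.2 CPM in the single libraries. Fam57b, which is linked to ceramide metabolism, was at 10.4 and 11.0 CPM in fear and 3.81 and 3.41 CPM in control, a log2 fold change of 1.54 ± 0.40 (SE; unadjusted p 0.000118, adjusted p 0.935). Cpq, a secreted carboxypeptidase, was at 8.57 and 12.9 CPM in fear and 3.33 and 3.67 CPM in control, a log2 fold change of 1.60 ± 0.43 (SE; unadjusted p 0.000186, adjusted p 0.935). In both, each fear library was more than 2 times each control library in level. Zar1, known from the oocyte, was at 7.14 and 11.9 CPM in fear and 3.45 and 2.88 CPM in control. Cutal, Gja5 (a gap junction protein), Rtp3 (a receptor transport protein), Anxa4 (a calcium-dependent membrane-binding protein), Cfap221 (a protein of cilia), Colec12 (a scavenger receptor) and Lbx2 (a homeobox factor) followed, with log2 fold changes between 0.93 and 1.80 and unadjusted p values between 0.000648 and 0.00238. Gja5 was uneven within the fear group, at 4.29 and 11.9 CPM, against 3.57 and 1.57 CPM in control, while Lbx2 was even, at 7.86 and 7.85 CPM in fear and 3.09 and 2.88 CPM in control.

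On the lower side, Rhox6, an X-linked homeobox gene of the reproductive tract, had 0 counts in both fear libraries, against 16 and 14 counts in the control libraries. A limit of 3 counts was set for each fear library, and the control counts were taken as exact. On that footing the mean control level of Rhox6 was at least 3.77 times the mean fear level (edgeR's quasi-likelihood test, unadjusted p 0.000179, adjusted p 0.935). Error in the control counts is not covered by this limit. In cortex Rhox6 was at 0.291 and 0.229 CPM in fear and 0.803 and 0 CPM in control, so it was near the limit of counting there. Tsta3, an enzyme of GDP-fucose synthesis, was at 23.9 and 21.7 CPM in fear and 32.5 and 46.4 CPM in control, a log2 fold change of -0.76 ± 0.23 (SE; unadjusted p 0.000805, adjusted p 1.0). Rhpn1 was at 31.8 and 33.6 CPM in fear and 40.0 and 60.8 CPM in control, with a log2 fold change of -0.61 ± 0.22 (SE; unadjusted p 0.00544). For Tsta3 and Rhpn1 the fear libraries were close together and the female control was the highest. Insl3, a peptide hormone of the insulin family, was at 3.93 and 4.71 CPM in fear and 9.04 and 12.3 CPM in control, a log2 fold change of -1.30. Tomm20l, Tbl3 (a factor of ribosome assembly), Glyctk (glycerate kinase), Mpp3 (a membrane scaffold protein), Htr2a, Fam167b, Adm2 (a peptide of the adrenomedullin family) and Ccdc154 had log2 fold changes between -1.12 and -0.69 and unadjusted p values between 0.00158 and 0.0063. These members were chosen by their difference in this contrast, and their sizes are descriptions.

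Of the leading promoters, 8 on the higher and 6 on the lower side had a RefSeq promoter sequence. None of the 14 held TGACGTC or TGANTCA. The EGR core was in Gja5, and the E-box was in Fam167b and Tomm20l. Over all tested genes with a sequence, TGACGTC was in 4.6%, TGANTCA in 8.35%, the EGR core in 11.9% and the E-box in 9.3%. With so few leading promoters, a difference from these shares was not tested.

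**Figure D5:**
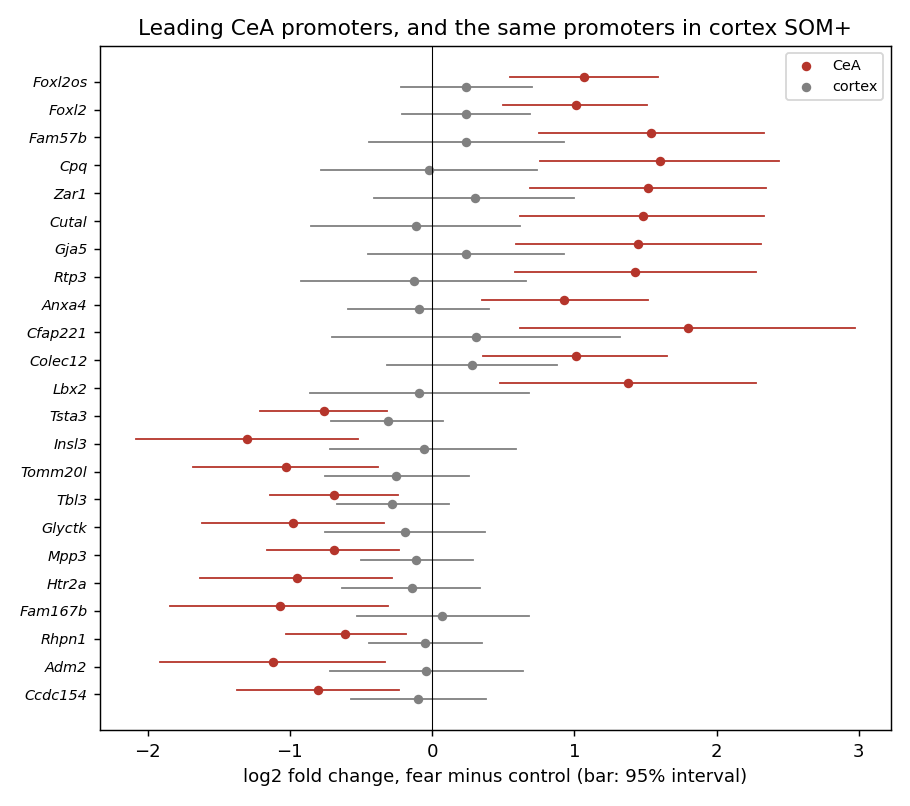
Log2 fold change of fear over control with its 95% interval for the leading promoters in CeA (red) and the same promoters in cortex (grey) SOM+ nuclei, without Rhox6, which has no interval. The CeA points were chosen for their size, and the cortex values lie between -0.31 and 0.31.

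The fear effect was then set against that in cortex SOM+ nuclei, whose control libraries are separate. The interaction test called 0 promoters higher (0.0%) and 0 lower (0.0%) in CeA relative to cortex, with a smallest adjusted p of 1.0, and at an unadjusted p under 0.05 it held 194 (0.771%) and 177 (0.704%). DESeq2 called 0, with 123 and 73 at an unadjusted p under 0.05. Without the male library of CeA control or of cortex fear, 3 promoters were called higher, and without that of cortex control, 3 lower, all of them Y-linked. At an unadjusted p under 0.05 the counts were 599 and 587 without the male CeA fear library, 243 and 692 without the female one, 368 and 288 without the male CeA control library, and 162 and 83 without the male cortex fear library. In cortex itself 0 were called in either direction (0.0%), with 193 higher (0.767%) and 95 lower (0.378%) at an unadjusted p under 0.05. Over all promoters the log2 fold changes in the 2 regions had a Pearson correlation of 0.047, and of 0.16 over the 15652 promoters with a mean of at least 10 CPM, as a description over promoters that share libraries within a region.

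The interaction leads were chosen by the smallest interaction p among promoters whose fear and control values in CeA did not overlap. That choice favours promoters that went opposite ways in the 2 regions, as these did, and their sizes are descriptions. Cxcl14, a chemokine, was at 4.82 and 4.71 CPM in fear and 10.5 and 9.70 CPM in control in CeA, and at 6.25 and 4.81 CPM in fear and 3.31 and 3.25 CPM in control in cortex. The difference of its log2 fold changes was -1.84 ± 0.57 (SE; unadjusted p 0.00102, adjusted p 1.0). Dach1, a transcriptional cofactor, was at 20.5 and 15.7 CPM in fear and 27.0 and 27.8 CPM in control in CeA, and at 9.08 and 5.96 CPM in fear and 5.32 and 4.11 CPM in control in cortex, a difference of -1.27 ± 0.40 (SE; unadjusted p 0.00134). For both genes the lack of overlap in CeA was a condition of the choice. The fear and control values in cortex did not overlap either. Those cortex values entered the interaction p by which the genes were chosen, so this is not a separate observation. Cdh17, a cadherin, had a difference of -2.73 at levels of 6.55 CPM or less. On the other side, Zp4-ps, a pseudogene, was at 17.3 and 16.0 CPM in fear and 9.52 and 9.96 CPM in control in CeA, and at 5.09 and 6.30 CPM in fear and 9.14 and 8.22 CPM in control in cortex, a difference of 1.40 ± 0.43 (SE; unadjusted p 0.00116). Mxra8, a cell-surface adhesion protein, and Ihh, a hedgehog ligand, had differences of 1.29 and 1.31.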

How the data were processed

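ATAC-seq promoter counts were analysed. The authors deposited raw read counts per promoter window in mm9 coordinates, 1 column per library and no normalization, as the whole numbers and unequal totals show. MACS2, Picard 1.88, Bowtie2, Trimmomatic 0.32 and bcl2fastq 2.16.0.10 are named in the submitters' processing notes. How reads were counted, and whether the Tn5 offset was applied or duplicates removed, is not given in the sources used here. Of 26728 entries, 663 repeats of a window were left out, and 1435 of 26065 windows were wider than 2000 bases, up to 6222. Neighbouring windows can share reads.

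Counts of the 8 SOM+ libraries were fitted with edgeR 4.0.16 in R 4.3.3 (TMM scaling, filterByExpr with a minimum count of 10 and total of 15, group as the term, 4 residual degrees of freedom, quasi-likelihood F tests, Benjamini-Hochberg adjustment over all promoters). Sharing the spread over 4 groups assumes that CeA libraries vary like those of cortex. The estimated spread was the same function of level for all promoters. Levels are TMM-scaled CPM. Intervals are Wald intervals of the fit. Alternatives used limma 3.58.1, DESeq2 1.42.0, other scalings, a replicate term, other sets of libraries and each library left out.

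The members and gene lists were chosen with earlier results of these data known. Named genes are, per direction, the 12 smallest p among promoters whose values did not overlap, 3 for the interaction, 11 fixed genes, and the 2 smallest p per direction of each list discussed, leaving out predicted genes, small RNAs and chemosensory receptors. Some genes that this rule names are not reported here. A gene with several windows is represented by the one of highest mean count. RefSeq held promoter sequences for 16839 of 23630 tested gene names.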

Additional observations from a re-analysis of the deposited data

Results flagged for a closer look

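The excess of ribosomal protein over olfactory receptor promoters went in opposite directions in the male and the female pair. In CeA SOM+ nuclei this excess in the fear library, divided by that in the control library, was 1.46 in the male pair and 0.473 in the female pair. With 1 library per sex and group, the difference between the sexes was not tested.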

How the results depend on the processing

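The count of called promoters was 0 in each direction, for the CeA effect and for its difference from cortex, under every scaling, tool, filter, set of libraries and replicate block that was run, and 4 of 68 counts moved, all with 1 library left out. Leaving out each library in turn gave 0 to 4 promoters called higher and 0 lower for the CeA effect, and 0 to 3 higher and 0 to 3 lower for the interaction. The 4 came without the male CeA control library and were Uty, Eif2s3y, Ddx3y and Foxl2os, and the 3 of the interaction were the Y-linked genes without that library, the male cortex fear or the male cortex control library. Each of these settings leaves the sexes unbalanced between groups. So does the fit without the male CeA fear library, in which the 3 Y-linked genes were lower, with adjusted p values of 0.542 to 0.562, and were not called. Foxl2os ranged from 0.74 to 1.68. The fit with the replicate block called 0 higher and 0 lower, with 371 and 305 at an unadjusted p under 0.05 and a smallest adjusted p of 0.102. Same-numbered libraries correlated in their deviations by -0.021 to 0.188, with 2 of 6 values below 0, so not every library correlated best with its own number, and the numbers, which stand for the labelled sex, were not taken to pair the samples. In the 4 CeA libraries alone, 178 and 160 had an unadjusted p under 0.05, and 134 and 145 with the block. Of the named promoters, 22 values changed sign. Sst was 0.07 under cyclic loess scaling, and Ntf3 was -0.00 without a filter and -0.03 in the fit over all 18 libraries. The others came from leaving out 1 library, over which the log2 fold change ran from -0.47 to 0.66 for Sst, -0.30 to 0.10 for Arc, -0.57 to 0.03 for Npas4, -0.22 to 0.60 for Bdnf, -0.10 to 0.68 for Crh, -0.06 to 0.43 for Prkcd, -0.26 to 0.02 for Penk, -0.50 to 0.14 for Fkbp5, -0.97 to 0.09 for Prkaca, -0.51 to 0.07 for Gabbr2, -0.68 to 0.09 for Gabbr1, -0.25 to 0.97 for Hsd11b1, -0.21 to 0.34 for Ntf3, -0.73 to 0.05 for Sp9 and -0.40 to 0.07 for Cort. Of the list medians, 348 moved by less than the spread between replicates and 12 by more, all with 1 library left out. The cause was not tested. Intervals within 2-fold were had by 1.31% of promoters up to 5 CPM and by 49.5% of those from 5 to 10.8 CPM.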
